A study of Mus musculus with 34 samples.

Results

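Dp16 mice carry an extra copy of a segment of chromosome 16 that matches much of human chromosome 21, and all of the mice compared here had been given tofacitinib, a small molecule taken by mouth that blocks Janus kinases (JAK). Hippocampal RNA of 5 Dp16 mice on tofacitinib was set against that of 5 wild-type (WT) mice on tofacitinib, which is 10 of the 34 libraries of the study. These 10 were taken by the genotype and treatment in their labels. Every animal was 6 months old and had received 15 mg/kg of the drug by oral gavage each day for a month. The labels give the Dp16 mice (3 females, 2 males) without a strain background. The WT mice were C57BL/6J (2 females, 3 males). The duplication is in the germline, so every cell of a Dp16 mouse carries it. The same comparison in mice given vehicle alone (0.5% methylcellulose, called sham here; 3 Dp16 and 5 WT mice) is given beside it where stated. The other groups, which carry the 5xFAD transgenes, a model of amyloid deposition, with or without the duplication, entered the shared estimate of the spread and are given for 1 gene, a.

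The segment holds the genes for both chains of the type I interferon receptor, for a chain of the interferon-gamma receptor and for a chain shared by the IL-10 family of receptors. These receptors have no kinase of their own and signal through JAK proteins bound to their tails, which phosphorylate STAT transcription factors, so that interferon-stimulated genes are switched on. It also holds the amyloid precursor gene App, the kinase gene Dyrk1a, and genes for synaptic vesicle recycling, superoxide removal and cell adhesion that are studied in Down syndrome. The comparison asks how far genes inside and outside the segment differ between the genotypes in mice given tofacitinib. Whether JAK was inhibited in the hippocampus was not tested.

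Poly(A) RNA was counted per gene, and the 10 libraries held 17 to 20.4 M counts in Dp16 mice and 14.9 to 19.3 M counts in WT mice. Levels of a gene across animals are in CPM, the count scaled to a library of 1 M counts, and levels compared between genes are in RPKM, which also divides by gene length. A gene passed the test when its adjusted p (edgeR, over 17518 genes tested) was under 0.05, and changes are log2 fold changes of Dp16 over WT. One library stood apart. The mean log2 CPM of 42 markers of dentate gyrus, CA1 and CA3 was 3.83 in WT mouse 3, against 5.08 to 5.27 in the other 9 mice. In the same mouse 19 striatal markers averaged 5.32 (2.42 to 2.96 in the other 9) and 18 neocortical markers averaged 5.58 (4.30 to 4.88 in the other 9). Thus 9 of the 10 libraries fit their hippocampal label by these markers, and 1 was low in them and high in markers of neighbouring regions. In bulk tissue fewer cells of a type and less RNA per cell cannot be told apart. Results that rest on WT mouse 3 are given with and without it.

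**Figure D1:**
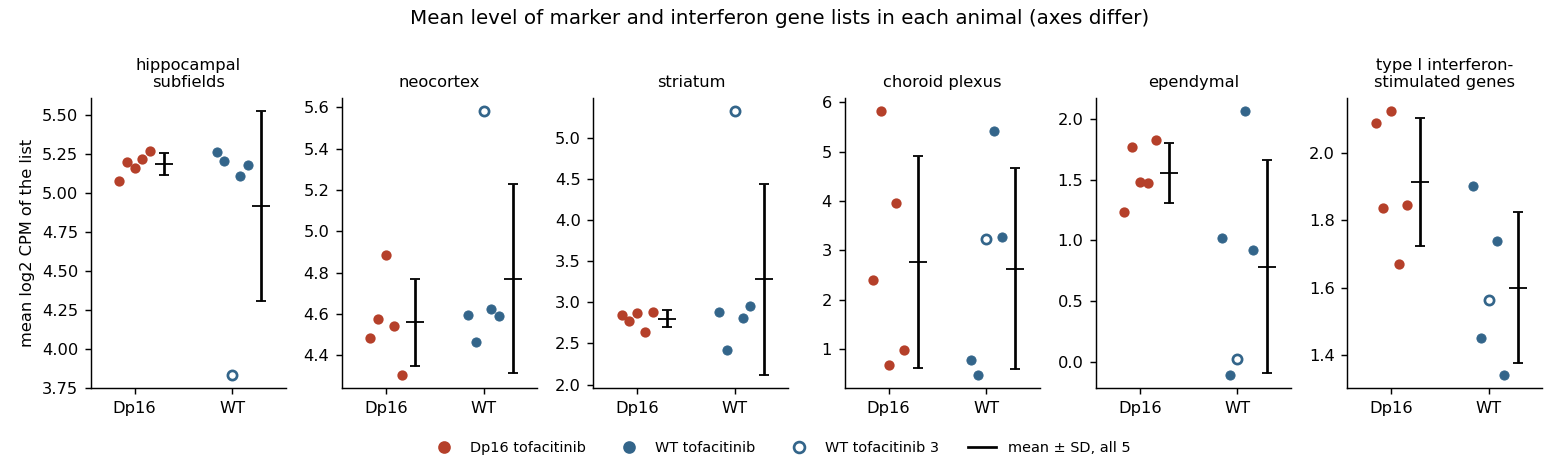
Mean log2 CPM (vertical axes, which differ) of 6 gene lists in each mouse, Dp16 on tofacitinib left of WT on tofacitinib, with the mean and SD of all 5 beside the points. The open circle is WT mouse 3, at 3.83 for hippocampal and 5.32 for striatal markers; choroid plexus markers run from 0.69 to 5.82 in Dp16 mice and from 0.48 to 5.43 in WT mice.

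Genes of the triplicated segment (22.4 Mb of chromosome 16, from Lipi to Zbtb21) were higher in Dp16 mice by close to the ratio of gene copies. Of the 384 genes of the segment, 107 were tested, and 37 of these passed, all higher in Dp16 mice. Over all genes tested, 0.257% passed as higher and 0.0114% as lower. The median log2 fold change of the 107 genes was 0.56 (quartiles 0.41 and 0.67), against 0.00 for the 426 genes tested elsewhere on chromosome 16, none of which passed by edgeR (25 were at an unadjusted p under 0.05) and none by DESeq2. In 62 of the 107 genes all 5 Dp16 mice were above all 5 WT mice, a pattern found in 0.976% of all genes tested. A ratio of 1.5, the ratio of copies, lay within the 95% interval of 99 of the 107 genes. It also lay within that of 5561 of all 17518 genes tested, since wide intervals hold many ratios. Without WT mouse 3, 34 segment genes passed, 33 of them among the 37, and the median was 0.57.

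Per animal, the mean log2 CPM over the 107 genes was 3.93, 3.98, 3.78, 3.93 and 3.85 in Dp16 mice, against 3.28, 3.24, 3.26, 3.40 and 3.36 in WT mice. The groups did not overlap, and WT mouse 3 lay among the other WT mice. The 5 nearest genes before it with at least 5 CPM, Vgll3, Cadm2, Gbe1, Robo1 and Robo2, had log2 fold changes of −0.09 to 0.20 and none passed. Of the first 5 at that level inside, Rbm11, Hspa13, Nrip1 and Usp25 had 0.51 to 0.70, and Gm9843, a processed pseudogene, had 0.10. Of the last 5, Dscam, C2cd2 and Zbtb21 had 0.61 to 0.76, Prdm15 had 0.32 and Pcp4 had 0.09. No tested gene after the segment reached 5 CPM. All 37 genes that passed were among the 74 segment genes with at least 5 CPM, where log2 fold changes ran from 0.09 to 1.10 with an SD of 0.17. The 33 below 5 CPM included the 7 genes at or under 0, all under 1 CPM in WT mice, such as Mx1 (−0.65 ± 1.07, SE), an interferon-induced antiviral gene.

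**Figure D2:**
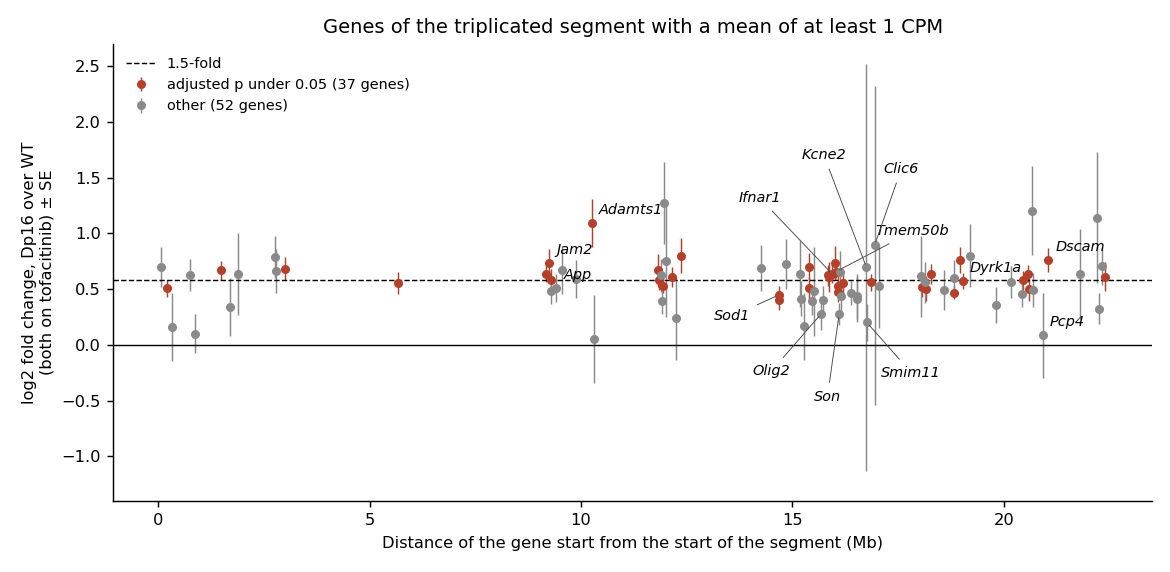
Log2 fold change of Dp16 over WT on tofacitinib (points, bars are SE) against the distance of each gene's start from the start of the segment in Mb, for the 89 segment genes with a mean of at least 1 CPM. The 37 genes past the threshold (red) lie around the dashed line at 1.5-fold along the whole segment, from 0.40 to 1.10; Clic6 and Kcne2 have the widest bars, and Pcp4 lies near 0.

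All 4 receptor genes rose. Ifnar1, the type I interferon receptor chain that binds TYK2 (chr16:91485238-91507441, GRCm38), had 57.1, 62.9, 62.9, 52 and 56.8 CPM in Dp16 mice, against 34.7, 39.8, 38.3, 30.3 and 42.4 CPM in WT mice. Every Dp16 mouse was above every WT mouse, with WT mouse 4 the lowest (log2 fold change 0.63, SE 0.08, adjusted p = 1.44e-05). Ifnar2, its partner chain, had 28.8, 28.6, 27.7, 26.1 and 26.3 CPM in Dp16 mice, against 16.7, 20.8, 16.1, 17.5 and 17.7 CPM in WT mice. The groups again did not overlap (log2 fold change 0.62, SE 0.09, adjusted p = 0.000196). Ifngr2, the signalling chain of the interferon-gamma receptor, had 106, 110.4, 104, 118 and 120.3 CPM in Dp16 mice, against 72.4, 73, 44.6, 75.8 and 70.2 CPM in WT mice. WT mouse 3 was far below the other WT mice, and the groups did not overlap with or without it (log2 fold change 0.73, SE 0.15, adjusted p = 0.0155). Without that mouse the value was 0.62, adjusted p = 0.0645, which missed the threshold, as it did without Dp16 mouse 4 or 5 (adjusted p up to 0.0682). Il10rb, the chain that receptors for IL-10, IL-22 and interferon lambda share, had 14.1, 15.3, 11.2, 11.1 and 10.1 CPM in Dp16 mice, against 5.89, 8.88, 9.53, 9.31 and 5.95 CPM in WT mice. Dp16 mouse 5 was only just above WT mouse 3, the highest WT mouse (log2 fold change 0.61, SE 0.14, adjusted p = 0.039), and the call was lost in 6 of the 10 fits that left out 1 mouse (Dp16 1, 2 or 4, WT 1, 2 or 5; adjusted p up to 0.258) and with the compared groups alone (0.627). Ifnar1 and Ifnar2 passed in all 10.

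App, the amyloid precursor gene, was among the 3 segment genes with the highest level per length in Dp16 mice, at 285 RPKM on average. In WT mice it averaged 197 RPKM. It had 1866, 2420.2, 2594, 2373 and 2386 CPM in Dp16 mice, against 1827, 1409.95, 1862, 1314 and 1675 CPM in WT mice. Dp16 mouse 1 and WT mice 1 and 3 lay close together, and the groups came near to overlapping but did not. App missed the threshold with all mice (log2 fold change 0.51, SE 0.12, adjusted p = 0.0745) and passed without WT mouse 3 (0.57, adjusted p = 0.0395) and by DESeq2. Its annotated span holds gene models of low level that could share its reads, the higher at 3.76 CPM in Dp16 mice and 2.39 CPM in WT mice. Bace2, a protease gene related to that of beta-secretase, had 5.36, 6.99, 5.26, 5.52 and 5.07 CPM in Dp16 mice, against 4.25, 2.71, 4.32, 4.61 and 2.34 CPM in WT mice. WT mouse 2 and WT mouse 5 were low, and the groups did not overlap, but the gene did not pass (log2 fold change 0.64, SE 0.40, adjusted p = 0.9997).

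Among kinase and calcineurin signalling genes, all 4 were above 0 and 2 passed. Over the segment 37 of 107 tested genes passed. Dyrk1a, a kinase gene whose dosage affects brain growth, had 123, 118, 130.1, 132 and 133 CPM in Dp16 mice, against 91, 91.9, 80.8, 77.5 and 88.9 CPM in WT mice. The lowest Dp16 mouse was well above the highest WT mouse (log2 fold change 0.57, SE 0.07, adjusted p = 2.36e-05). Rcan1, an inhibitor of the phosphatase calcineurin, had 74.5, 75.2, 86.6, 85 and 81.6 CPM in Dp16 mice, against 48.8, 52.5, 67.5, 52.1 and 52.6 CPM in WT mice. WT mouse 3 was the highest WT mouse and still below every Dp16 mouse (log2 fold change 0.56, SE 0.08, adjusted p = 0.000127, and 0.64, adjusted p = 1.39e-05 without it). Tiam1, an activator of the GTPase RAC, averaged 179.9 ± 16.2 CPM in Dp16 mice and 111 ± 30.4 CPM in WT mice (SD, n = 5 each). WT mouse 3 was lowest at 62.1 CPM, and every Dp16 mouse was above every WT mouse. The gene missed the threshold with WT mouse 3 (log2 fold change 0.69, SE 0.21, adjusted p = 0.409) and without it (0.55, adjusted p = 0.919). Ripk4, a kinase of epithelial cells, averaged 2 ± 0.944 CPM in Dp16 mice and 0.882 ± 0.671 CPM in WT mice (SD, n = 5 each) and did not pass.

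Of 7 tested genes of endocytosis and membrane traffic, 5 passed, and in all 7 every Dp16 mouse was above every WT mouse. Tmem50b, a membrane protein gene, had the smallest p of all genes tested. It had 119, 127, 122, 125 and 124 CPM in Dp16 mice, against 80.8, 77.1, 74.1, 75.7 and 80.5 CPM in WT mice. Both groups were tight, and the lowest Dp16 mouse was far above the highest WT mouse (log2 fold change 0.66, SE 0.06, adjusted p = 1e-07). Synj1, the phosphatase that uncoats synaptic vesicles, had 495, 549, 560.1, 566 and 571 CPM in Dp16 mice, against 405, 328, 279.9, 277 and 395 CPM in WT mice. Dp16 mouse 1 was the lowest of its group and still above all WT mice (log2 fold change 0.70, SE 0.12, adjusted p = 0.00118). Itsn1, a scaffold of clathrin-coated pits, had 319, 289.96, 281, 308 and 283 CPM in Dp16 mice, against 204, 193, 190.5, 190.3 and 234 CPM in WT mice. The groups did not overlap (log2 fold change 0.55, SE 0.09, adjusted p = 0.000621). Dop1b and Vps26c, both of endosomal sorting, rose by 0.50 (adjusted p = 0.0338) and 0.76 (adjusted p = 0.000321). The call of Dop1b was lost in 6 of the 10 fits that left out 1 mouse (adjusted p up to 0.184), and that of Vps26c in none. Cryzl1, at 0.43 (adjusted p = 0.342), and Sh3bgr, at 1.20 (adjusted p = 0.554), did not pass.

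**Figure D3:**
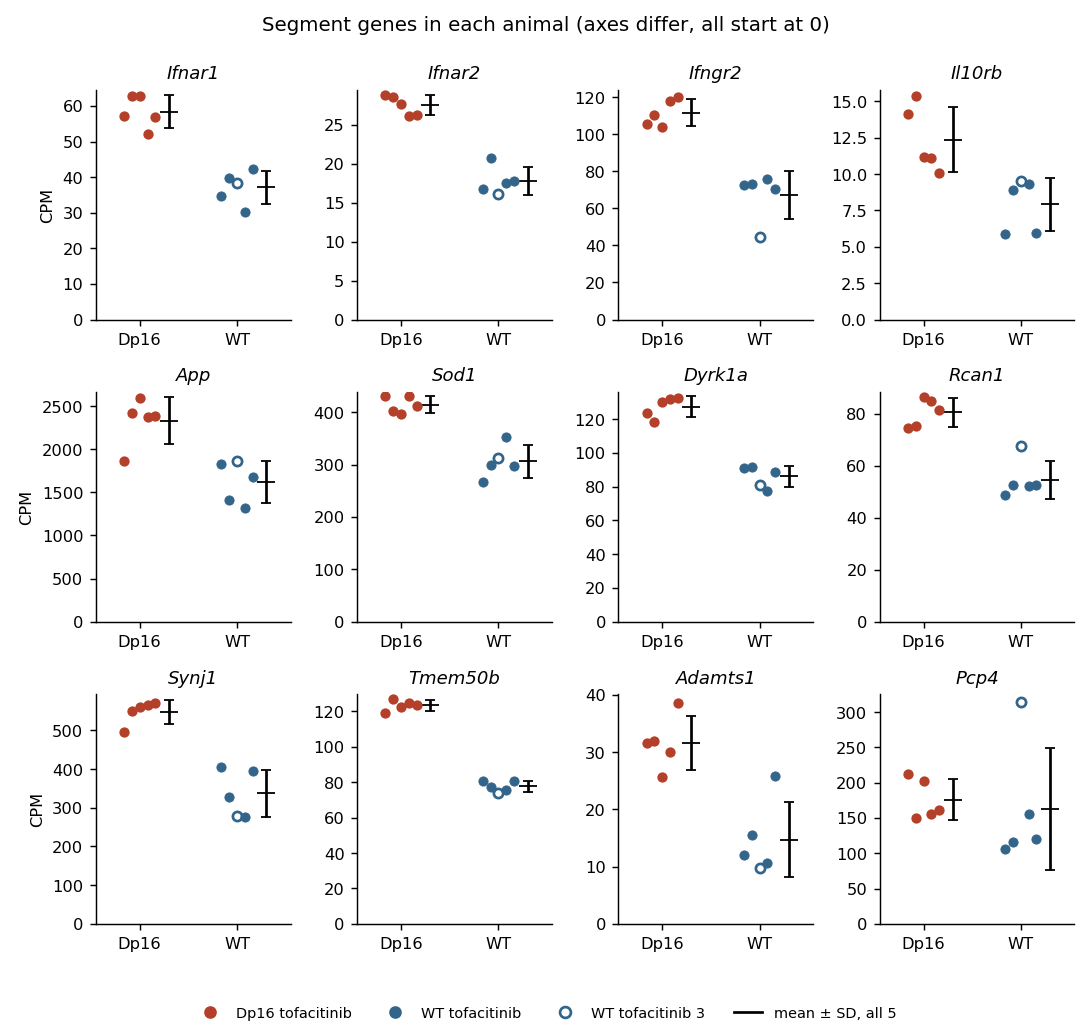
CPM of 12 segment genes (vertical axes start at 0 and differ) in each of the 5 Dp16 mice and 5 WT mice on tofacitinib, with mean and SD. The open circle is WT mouse 3, the lowest WT mouse for Ifngr2 at 44.6 CPM and the highest WT mouse for Rcan1 at 67.5 and Pcp4 at 314 CPM. Of the genes drawn, Adamts1 and Pcp4 overlap between the groups.

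Of 14 tested genes for adhesion, channels and synapses, all 14 were above 0 and 5 passed. Adamts1, a secreted protease of the extracellular matrix, had the largest rise of the segment's genes that passed, with 31.5, 32, 25.7, 30.1 and 38.7 CPM in Dp16 mice, against 12, 15.5, 9.74, 10.6 and 25.8 CPM in WT mice. WT mouse 5 was above the lowest Dp16 mouse, so that this was the 1 gene of the 37 whose groups overlapped (log2 fold change 1.10, SE 0.22, adjusted p = 0.0099). With all mice its 95% interval, 0.66 to 1.54, lay above the log2 of 1.5 (0.585). WT mouse 3 was the lowest WT mouse, and without it the log2 fold change was 0.98 (SE 0.22, adjusted p = 0.046). The interval without that mouse was not worked out, so a rise beyond 1.5-fold was seen only with it. The call was lost without Dp16 mouse 5 or WT mouse 1 (adjusted p up to 0.067) and in the fit of the compared groups alone (0.254). Dscam, a neuronal recognition molecule, had 118, 114, 126, 125 and 119 CPM in Dp16 mice, against 80.7, 72.1, 62.7, 60.7 and 79.9 CPM in WT mice. The groups lay far apart (log2 fold change 0.76, SE 0.11, adjusted p = 0.000126). Ncam2, a neural adhesion molecule, rose by 0.56 (adjusted p = 0.00327), Jam2, a junction protein of vessels and glia, by 0.74 (adjusted p = 0.000725), and Grik1, the kainate receptor subunit GluK1, by 0.80 (adjusted p = 0.00997). The call of Grik1 was lost without Dp16 mouse 5 or WT mouse 1 (adjusted p up to 0.0586). Kcnj6, the potassium channel subunit GIRK2, had 33, 40.2, 43.6, 50.6 and 45.1 CPM in Dp16 mice, against 30.7, 26.2, 19.1, 21.9 and 24.7 CPM in WT mice. These groups did not overlap either, but with its wide SE the gene did not pass (log2 fold change 0.80, SE 0.28, adjusted p = 0.75).

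Clic6 and Kcne2 are segment genes that choroid plexus expresses strongly, and they varied widely within both groups. Clic6 had 15.3, 159, 6.74, 49.2 and 8.28 CPM in Dp16 mice, against 4.31, 0.801, 17.6, 76.9 and 16.5 CPM in WT mice. Kcne2 had 8.03, 58.7, 0.334, 20.4 and 0.259 CPM in Dp16 mice, against 0, 0.431, 7.61, 40.9 and 6.06 CPM in WT mice. In both genotypes the mouse with the most choroid plexus signal, Dp16 mouse 2 (mean log2 CPM of 16 markers 5.82) and WT mouse 4 (5.43), was the highest for both genes. Among WT mice, mice 1 and 2 were the lowest for the marker list (0.77 and 0.48) and for both genes. Neither gene passed, with log2 fold changes of 0.89 ± 1.43 and 0.70 ± 1.83 (SE). Of the 16 markers, 12 were above 0 in the comparison and none passed (edgeR and DESeq2, none at an unadjusted p under 0.05). The part of choroid plexus in these values was not tested.

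Of 4 redox genes, all 4 were above 0 and 3 passed. Sod1, the cytosolic superoxide dismutase, was the segment gene with the highest level per length, at 645 RPKM in Dp16 mice and 477 RPKM in WT mice. It had 431, 401, 396, 431 and 411 CPM in Dp16 mice, against 268, 299, 313, 352 and 298 CPM in WT mice. WT mouse 4 was the highest WT mouse and below every Dp16 mouse (log2 fold change 0.45, SE 0.08, adjusted p = 0.00364). Bach1, a heme-sensing repressor of antioxidant genes, had 18.9, 19.7, 18.3, 20.04 and 19.6 CPM in Dp16 mice, against 13.4, 13.4, 13.4, 9.91 and 12.6 CPM in WT mice. The Dp16 values were tight, and WT mouse 4 was lowest (log2 fold change 0.61, SE 0.09, adjusted p = 0.00013). Cbr1, a carbonyl reductase, rose by 0.52 (adjusted p = 0.00067). Its neighbour Cbr3 had 0.56 ± 0.18 (SE, adjusted p = 0.541) and did not pass, though every Dp16 mouse was above every WT mouse.

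Among transcription and chromatin genes, all 17 were above 0 and 6 passed. They include Gabpa, a transcription factor of mitochondrial and synaptic genes (0.58), N6amt1, a methyltransferase (0.67), and Morc3, a nuclear body ATPase (0.64). Also among the 6 were Brwd1, a bromodomain protein (0.58), Hmgn1, a nucleosome-binding protein (0.64), and Zbtb21, a zinc finger repressor (0.61). Hmgn1 had 106, 88.8, 87.8, 93.4 and 93.7 CPM in Dp16 mice, against 54.6, 63.8, 55.3, 67.7 and 60.3 CPM in WT mice. The groups did not overlap (log2 fold change 0.64, SE 0.08, adjusted p = 1.25e-05). The calls of N6amt1 and Zbtb21 were each lost in 6 of the 10 fits that left out 1 mouse, WT mouse 3 among them (adjusted p up to 0.164 and 0.094). The oligodendrocyte lineage factors Olig2 and Olig1 did not pass. Olig2 had 41.6, 54.4, 45.6, 50.1 and 50.4 CPM in Dp16 mice, against 39.3, 31, 48.6, 37.9 and 39.9 CPM in WT mice, with overlapping groups (log2 fold change 0.28, SE 0.14, adjusted p = 0.9997), and its 95% interval of −0.01 to 0.57 did not reach the log2 of 1.5. For Olig2, WT mouse 3 was the highest WT mouse. Without it the log2 fold change was 0.37 (SE 0.14) and the gene still did not pass. The interval without that mouse was not worked out, so an Olig2 rise short of 1.5-fold was seen only with it. Olig1 had 0.40 ± 0.13 (SE, adjusted p = 0.476).

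The largest group, RNA processing, protein handling and metabolism, had 12 of 36 genes pass. Ttc3, a ubiquitin ligase gene, had 1193, 1271, 1339, 1295 and 1247 CPM in Dp16 mice, against 974, 898, 967, 834 and 902 CPM in WT mice. The groups did not overlap, and the lowest Dp16 mouse was well above the highest WT mouse (log2 fold change 0.47, SE 0.06, adjusted p = 3.84e-05). Usp25, a deubiquitinase gene, had 48.8, 63, 57, 63.9 and 57.2 CPM in Dp16 mice, against 38.3, 33.6, 40.3, 36.1 and 35.1 CPM in WT mice. Dp16 mouse 1 was the lowest Dp16 mouse and above every WT mouse (log2 fold change 0.67, SE 0.09, adjusted p = 3.1e-05). Mrpl39, of the mitochondrial ribosome, rose by 0.64 (adjusted p = 6.64e-06). Cct8, a subunit of the TRiC chaperonin, rose by 0.53 (adjusted p = 3.1e-05). Hspa13, an Hsp70-like chaperone (0.51), and Ltn1, the ligase of ribosome quality control (0.58), also passed, as did D16Ertd472e, Scaf4, Cfap298, Dnajc28, Gart and Wrb, at 0.40 to 0.68. The call of Scaf4 was lost in 6 of the 10 fits that left out 1 mouse, WT mouse 3 among them (adjusted p up to 0.0982), and that of Wrb in 3 (up to 0.0705). Atp5o, a subunit of ATP synthase, came next in level per length after Sod1 in Dp16 mice, at 319.97 RPKM. In WT mice it had 234 RPKM, below Pcp4 at 252 RPKM. Atp5o did not pass (log2 fold change 0.46, SE 0.11, adjusted p = 0.0626), though it did by DESeq2. The pairs Ttc3 and Pigp, Cct8 and Usp16, Gabpa and Atp5j, Sod1 and Scaf4, Son and Donson, and Zbtb21 and C2cd2 overlap in the annotation and may share reads. None of the 19 tested segment genes outside these role groups passed by edgeR (5 were at an unadjusted p under 0.05).

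A few segment genes of at least 5 CPM lay below the rest. Besides Gm9843, the lowest 5 were Pcp4, Smim11, Son, Olig2 and Prdm15. Pcp4, a calmodulin regulator that striatum and CA2 express strongly, had 213, 149, 202, 155 and 161 CPM in Dp16 mice, against 106, 116, 314, 156 and 121 CPM in WT mice. WT mouse 3 was above every other mouse, and the log2 fold change was 0.09 with it and 0.46 without it, neither past the threshold. Son, an RNA splicing cofactor, had 182, 235, 220.3, 205 and 219 CPM in Dp16 mice, against 197, 165, 177, 148 and 181 CPM in WT mice. The groups overlapped (log2 fold change 0.28, SE 0.10, adjusted p = 0.697), and the 95% interval of 0.08 to 0.47 ended below the log2 of 1.5. For Smim11, a small membrane protein gene, the mean was 12.8 ± 2.33 CPM in Dp16 mice and 11.1 ± 2.84 CPM in WT mice (SD, n = 5 each), with an interval of −0.14 to 0.54. Prdm15, a zinc finger gene, was at 0.32 ± 0.14 (SE), and its interval of 0.04 to 0.61 held 1.5-fold.

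Outside the segment 10 genes passed, 8 higher and 2 lower in Dp16 mice, on 8 chromosomes. The gene a (nonagouti, chr2:154791402-155051012), which encodes agouti signalling protein, was counted in every Dp16 mouse and in no WT mouse. It had 2.37, 2.48, 1.34, 1.57 and 3.16 CPM in Dp16 mice, against 0, 0, 0, 0 and 0 CPM in WT mice. No read was counted in any WT mouse on tofacitinib, while Dp16 mice had 28 to 61 counts each. Pooled over the group the level was 2.17 CPM in Dp16 mice, at least 61.4-fold higher than in WT mice when 3 counts over the whole WT group are taken as the limit (adjusted p = 0.000533, and 0.00153 without WT mouse 3). In the other groups it had 1.23 to 2.05 CPM in 3 Dp16 sham mice against 0 to 0.219 CPM in 5 WT sham mice, and 0.861 to 2.17 CPM in 7 mice with 5xFAD and the duplication against 0 to 0.504 CPM in 9 with 5xFAD alone. C57BL/6J mice carry the nonagouti allele of this gene, and the labels give no strain or coat colour for the Dp16 mice. A difference in strain background, if there was one, cannot be told apart from the duplication for any of these 10 genes. The annotated span of a overlaps Raly and Eif2s2, which had log2 fold changes of −0.28 and −0.18 and did not pass.

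Slc5a5, the sodium-iodide symporter, had 43.6, 47, 40.1, 42.1 and 39.1 CPM in Dp16 mice, against 21.6, 23.4, 19.3, 26.4 and 28 CPM in WT mice. Every Dp16 mouse was well above every WT mouse (log2 fold change 0.83, SE 0.14, adjusted p = 0.000941). Lcat, the enzyme that esterifies cholesterol in lipoproteins and which astrocytes make in brain, had 52, 41.9, 43, 49.4 and 45.5 CPM in Dp16 mice, against 34, 32.6, 28.8, 30.9 and 30.6 CPM in WT mice. Every Dp16 mouse was above every WT mouse (log2 fold change 0.56, SE 0.11, adjusted p = 0.00492). Prpf40b, a splicing factor gene, had 43.8, 49.8, 47.7, 43.5 and 41.7 CPM in Dp16 mice, against 32.5, 32.5, 35.5, 32.3 and 32.7 CPM in WT mice. WT mouse 3 was the highest of the tight WT group and still below the Dp16 mice (log2 fold change 0.43, SE 0.07, adjusted p = 0.00108). These 3 genes, a and Cbs passed in all 10 fits that left out 1 mouse. Chid1, a chitinase-like gene (log2 fold change 0.35, SE 0.08, adjusted p = 0.0443), lost its call without any 1 of 8 of the mice, WT mouse 3 among them (0.30, adjusted p = 0.217). Gm48678, a noncoding gene model on chromosome 12 named after its values were seen, averaged 4.87 CPM in Dp16 mice and 1.58 CPM in WT mice (log2 fold change 1.56, adjusted p = 0.0266, and 1.84 in sham mice). Its call was lost in 7 of the 10 fits (adjusted p up to 0.153). The other two genes that rose are histone genes.

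Both genes that fell code for proteins of intermediary metabolism. Cbs, cystathionine beta-synthase, which makes cystathionine from homocysteine, lies on chromosome 17 in a stretch that matches human chromosome 21 but is not part of the duplication. It had 20.6, 25, 17.8, 18.8 and 19.7 CPM in Dp16 mice, against 30.9, 30.4, 34.9, 27.9 and 32.2 CPM in WT mice. All 5 Dp16 mice were below all 5 WT mice (log2 fold change −0.59, SE 0.11, adjusted p = 0.00451), and without WT mouse 3 it was −0.56, adjusted p = 0.0166. Of the 13 tested genes of that chromosome 17 stretch Cbs alone passed (median 0.00, and 1 of 13 at an unadjusted p under 0.05), and of 30 on the matching stretch of chromosome 10 none did by edgeR or DESeq2 (median 0.03, 1 at an unadjusted p under 0.05 by each). Among 15 genes of the homocysteine and methionine cycle no other passed. Slc13a5, the citrate transporter, had 10.2, 10.7, 7.41, 9.15 and 8.8 CPM in Dp16 mice, against 11.5, 14.3, 22.3, 13.7 and 13.7 CPM in WT mice. WT mouse 3 was far above the rest and all Dp16 mice were below all WT mice (log2 fold change −0.72, SE 0.16, adjusted p = 0.0338), but without it the gene did not pass (−0.54, adjusted p = 0.21). In all the call was lost in 7 of the 10 fits that left out 1 mouse, with the replicate number as a block, with 2 surrogate variables and with the compared groups alone (adjusted p up to 0.388).

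**Figure D4:**
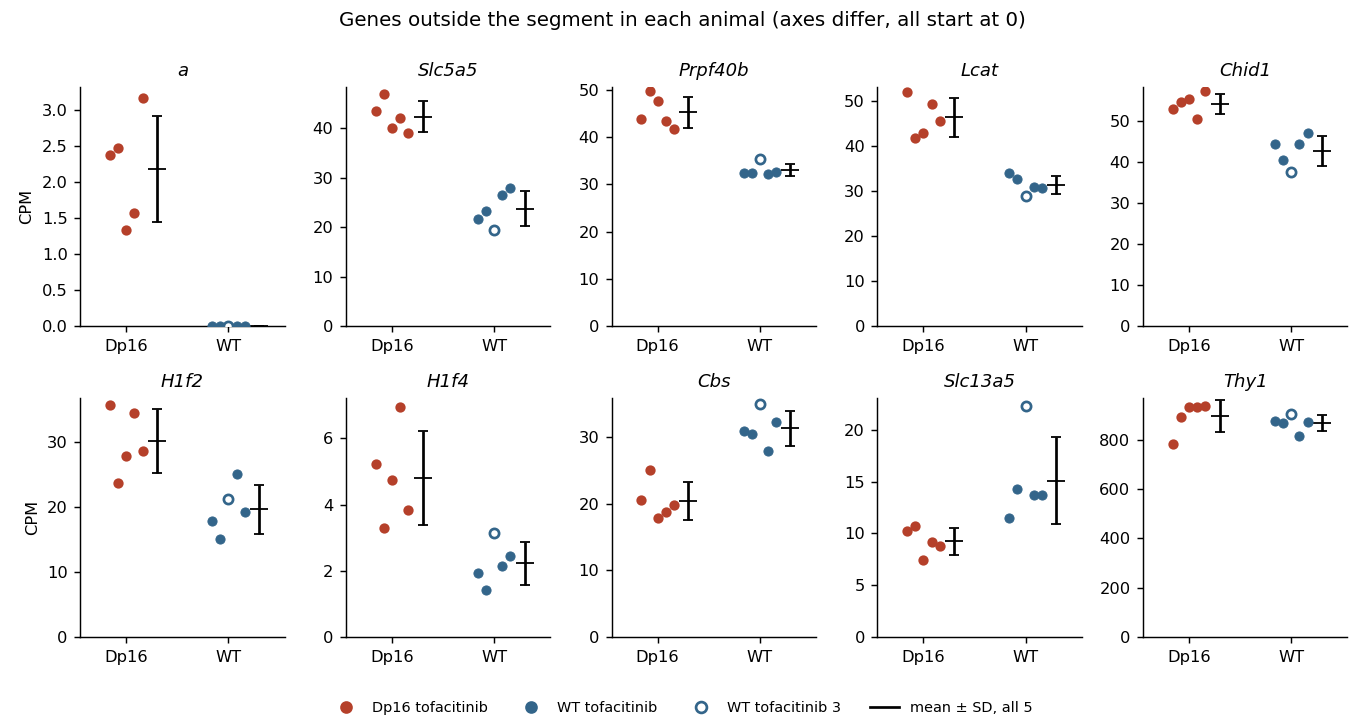
CPM of 10 genes outside the segment (vertical axes start at 0 and differ) in each Dp16 mouse and each WT mouse on tofacitinib, with mean and SD; the open circle is WT mouse 3. For the gene a all WT mice are at 0, and for Slc13a5 WT mouse 3 at 22.3 CPM stands above all others. Thy1, a neuronal surface protein gene that serves as a control, overlaps between the groups.

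Of 8 tested linker and other histone genes 5 were above 0 and 2 passed, both linker histone genes of the cluster on chromosome 13. The largest log2 fold change of the list, 1.29 ± 0.43 (SE), was that of H2ac6, a core histone gene of that cluster. All Dp16 mice were above all WT mice for H2ac6 at low levels (means of 2.45 and 0.984 CPM), but it did not pass (adjusted p = 0.554). H1f4 had 5.23, 3.3, 4.73, 6.93 and 3.83 CPM in Dp16 mice, against 1.94, 1.42, 3.15, 2.15 and 2.46 CPM in WT mice. Dp16 mouse 2 was just above WT mouse 3 and the groups did not overlap (log2 fold change 1.21, SE 0.24, adjusted p = 0.00863). H1f2 had 35.6, 23.7, 27.9, 34.3 and 28.6 CPM in Dp16 mice, against 17.8, 15, 21.1, 25 and 19.2 CPM in WT mice. Here WT mouse 4 was above Dp16 mouse 2 (log2 fold change 0.63, SE 0.14, adjusted p = 0.0355). The call of H1f2 was lost without Dp16 mouse 1, 4 or 5 or WT mouse 1, 2, 3 or 5 (adjusted p up to 0.216), and that of H1f4 without Dp16 mouse 4 or WT mouse 2 (adjusted p up to 0.0629). Both were also lost with the compared groups alone (up to 0.0736). The linker histones whose genes lie elsewhere did not pass: H1f0 was at 0.02 (adjusted p = 0.9997) and H1f10 at −0.02 (adjusted p = 0.9997). H2bc6, which overlaps H1f4 in the annotation, had −0.25 ± 0.22 (SE) and did not pass. Most messages of this cluster are not polyadenylated, and the libraries held poly(A) RNA. The promoters of H1f2 (chr13:23738808-23740367) and H1f4 (chr13:23620629-23622558) share the H1 box, AAACACA, a sequence element of linker histone promoters. Both are shown from 250 bases before to 50 bases after the RefSeq start (GRCm38.p6, 5′ to 3′ on the coding strand, at chr13:23738557-23738856, plus strand, and chr13:23622509-23622808, minus strand), with the box in capitals.
H1f2: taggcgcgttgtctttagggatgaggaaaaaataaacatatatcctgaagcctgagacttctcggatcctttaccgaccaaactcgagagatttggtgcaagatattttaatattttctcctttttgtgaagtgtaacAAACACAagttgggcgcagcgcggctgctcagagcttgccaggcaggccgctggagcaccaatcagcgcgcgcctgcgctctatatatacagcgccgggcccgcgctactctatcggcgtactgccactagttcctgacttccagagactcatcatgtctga
H1f4: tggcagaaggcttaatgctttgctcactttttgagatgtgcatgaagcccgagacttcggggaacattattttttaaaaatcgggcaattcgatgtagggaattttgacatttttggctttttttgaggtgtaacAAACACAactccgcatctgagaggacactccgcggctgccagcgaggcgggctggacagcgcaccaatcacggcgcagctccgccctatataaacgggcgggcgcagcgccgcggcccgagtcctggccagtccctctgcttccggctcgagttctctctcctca
The box starts 112 bases before the start of H1f2 and 115 bases before that of H1f4. On either strand it is in 3 of the promoters of 5 linker histone genes (H1f2, H1f3 and H1f4, not H1f0 or H1f10) and in 7.2% of all 32851 promoters of the table. A match is a description only.

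No gene of the type I interferon response passed, while the genes of its receptor rose. By edgeR and by DESeq2 0 of 45 tested interferon-stimulated genes outside the segment passed (6 at an unadjusted p under 0.05 by DESeq2). Of these, 36 had a log2 fold change above 0 (8556 of 17518 for all genes), with a median of 0.22 (0.00 for all genes) that was the same without WT mouse 3. By edgeR 5 were at an unadjusted p under 0.05 (852 of 17518 genes, 4.86%, over all genes tested), and they are named after their values were seen: Dhx58, a regulator of RNA sensing (1.49), Eif2ak2, the kinase PKR (0.48), Lgals3bp, a secreted glycoprotein (0.64), Dtx3l, a ubiquitin ligase (0.44), and Parp14, an ADP-ribosyltransferase (0.48). Dhx58 had 1.64, 0.971, 2.1, 2.17 and 1.81 CPM in Dp16 mice, against 0.728, 0.616, 0.48, 0.651 and 0.572 CPM in WT mice. The groups did not overlap at these low counts (log2 fold change 1.49, SE 0.46, adjusted p = 0.414). Lgals3bp had 36.9, 37.6, 27.7, 21.7 and 23.6 CPM in Dp16 mice, against 20.9, 15.9, 14.7, 20.6 and 17.7 CPM in WT mice. Dp16 mice 1 and 2 were highest, and Dp16 mouse 4 was only just above the WT mice (log2 fold change 0.64, SE 0.22, adjusted p = 0.671).

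Per animal the mean log2 CPM of the 45 genes was 2.09, 1.84, 2.12, 1.67 and 1.84 in Dp16 mice, against 1.90, 1.45, 1.56, 1.74 and 1.34 in WT mice. The groups overlapped, since WT mouse 1 was above 3 of the Dp16 mice. Besides Lgals3bp, the 5 most abundant members were Adar, Ifi27, Cmpk2 and Stat2. Adar, an RNA editor, averaged 146 ± 19.6 CPM in Dp16 mice and 141 ± 14.5 CPM in WT mice (SD, n = 5 each). Stat2, a transcription factor of the response, averaged 15.7 ± 2.17 CPM in Dp16 mice and 15.9 ± 3.97 CPM in WT mice (SD, n = 5 each), Cmpk2 averaged 24 ± 1.96 CPM in Dp16 mice and 22.8 ± 2.94 CPM in WT mice (SD, n = 5 each), and Ifi27 averaged 29.3 ± 5.87 CPM in Dp16 mice and 24.9 ± 5 CPM in WT mice (SD, n = 5 each). In WT mouse 1 Stat2 was at 22.9 CPM, above all other mice. The classical targets Isg15 (−0.00 ± 0.21), Irf7 (0.08 ± 0.30), Ifit1 (0.56 ± 0.31) and Usp18 (−0.51 ± 0.43, SE) lay on either side of 0. Promoters of this list matched the interferon-stimulated response element, searched on both strands as GAAA, any 2 bases and GAAA again, in 15 of the 35 found in the table (42.9%), against 3.4% of all promoters there.

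Genes induced by interferon gamma and MHC class I genes likewise held no gene that passed: by edgeR and DESeq2 0 of 35 did (3 and 6 at an unadjusted p under 0.05), 27 were above 0 and the median was 0.22. H2-K1, a classical class I gene, had 45.6, 31.9, 41.5, 40.8 and 38.2 CPM in Dp16 mice, against 26.6, 37.4, 27.4, 28.9 and 28 CPM in WT mice. WT mouse 2 overlapped the Dp16 mice (log2 fold change 0.39, SE 0.14, adjusted p = 0.727). B2m, the light chain of class I, averaged 142 CPM in Dp16 mice and 114 CPM in WT mice (log2 fold change 0.29, SE 0.16, adjusted p = 0.9997). The H2, Ifit and Oas genes have close copies, and the labels do not say how reads with several matches were counted. Among 25 JAK-STAT signal transducers none passed by edgeR or DESeq2 (none at an unadjusted p under 0.05 by either), with a median of 0.05. Jak1, a target of the drug, was at 0.08 ± 0.10, Jak3 at 0.17 ± 0.19 and Stat3 at −0.01 ± 0.10 (SE). The 15 feedback genes, which include Socs3 and Cish, had a median of −0.04, and none passed by either tool, also unadjusted.

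No list of glial, vascular, neuronal or regional genes had a member that passed by edgeR or DESeq2. By edgeR each held 0 to 5 genes at an unadjusted p under 0.05, against 4.86% of all genes tested. The most were 5 of 19 striatal, 4 of 24 reactive astrocyte and 3 of 19 astrocyte genes. Medians were −0.04 for 16 homeostatic microglial genes, 0.02 for 30 plaque-associated microglial genes, −0.01 for 19 astrocyte genes, 0.07 for 20 myelin genes, −0.03 for 27 glutamate receptor and postsynaptic genes and −0.13 for 12 GABA-A receptor subunits. Without WT mouse 3, the medians of the myelin, glutamate receptor and GABA-A lists were 0.14, −0.01 and −0.07. The 24 reactive astrocyte genes had a median of 0.23, and 0.11 without WT mouse 3. The 12 complement genes had a median of 0.22. C4b, a complement gene that reactive astrocytes express, had 52.3, 38.6, 40.6, 44.5 and 42.2 CPM in Dp16 mice, against 31.1, 35, 8.78, 30.7 and 28.1 CPM in WT mice. The groups did not overlap, and WT mouse 3 was far below the rest (log2 fold change 0.69, SE 0.31, adjusted p = 0.983, and 0.48 without it). All 19 ependymal markers were above 0 (median 0.38, and 0.28 with 18 above 0 without WT mouse 3), and Foxj1, the master factor of motile cilia, had 16.1, 19.3, 14.1, 16.7 and 21.7 CPM in Dp16 mice, against 16.1, 6.66, 7.95, 22 and 10.8 CPM in WT mice. The groups overlapped, with WT mouse 4 above every Dp16 mouse. All 19 striatal markers were below 0, with a median of −0.97 that was −0.10 without WT mouse 3, and neocortical markers were at −0.25, and −0.02 without it. Leptomeningeal markers were at 0.39, and 0.23 without it, and thalamic markers at −0.32, and −0.24 without it. The part of these tissues in the other results was not tested, beyond the values given without WT mouse 3.

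Beside vehicle-treated mice the segment gave close values. In sham mice 54 genes passed, 43 of them higher (0.245% of the 17518 tested), and 34 of these were in the segment, where the median log2 fold change was 0.58. The sham comparison, with 3 Dp16 and 5 WT mice, shares no animal with that on tofacitinib. Both comparisons called 29 segment genes, which is 29 of 37 on tofacitinib and 29 of 34 in sham mice. Each of the 37 had a sham log2 fold change above 0, between 0.36 and 0.96. Ifnar1 was at 0.63 on tofacitinib and 0.79 in sham mice, Ifnar2 at 0.62 and 0.88, Dyrk1a at 0.57 and 0.56, and App at 0.51 and 0.46. Cbs was at −0.59 on tofacitinib and −0.87 in sham mice. Outside the segment 4 genes passed in both, of 10 on tofacitinib and 20 in sham mice.

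The difference between the effects on tofacitinib and in sham mice was tested in the same fit, and no gene passed (smallest adjusted p 0.241). At an unadjusted p under 0.05 there were 396 genes, 2.26% of those tested, and DESeq2 called 4 (445 unadjusted). Within the segment 3 genes were at an unadjusted p under 0.05. The type I interferon list had medians of 0.22 on tofacitinib and 0.48 in sham mice, and the interferon gamma and MHC class I list 0.22 and 0.42. Mean log2 CPM of the type I list ran from 1.70 to 2.45 in the 3 Dp16 sham mice. Their median was 1.78, against 1.84 in Dp16 mice on tofacitinib. WT medians were 1.60 in sham mice and 1.56 on tofacitinib. For the interferon gamma and MHC class I list the Dp16 medians were 2.25 in sham mice and 1.98 on tofacitinib. The Dp16 ranges overlapped, at 2.06 to 2.36 in 3 sham mice and 1.82 to 2.21 on tofacitinib. WT medians of this list were 1.79 in sham mice and 1.81 on tofacitinib. Iigp1, a GTPase induced by interferon, passed in sham mice (1.04, adjusted p = 0.0276) and not on tofacitinib (0.56, adjusted p = 0.761), and the difference itself did not pass. Among the 5 genes with the smallest p for the difference were Vps37c, of endosomal sorting (0.31 on tofacitinib and −0.36 in sham mice, adjusted p = 0.241), and the mitochondrially encoded mt-Atp8 (0.04 and 1.25, adjusted p = 0.9997).

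**Figure D5:**
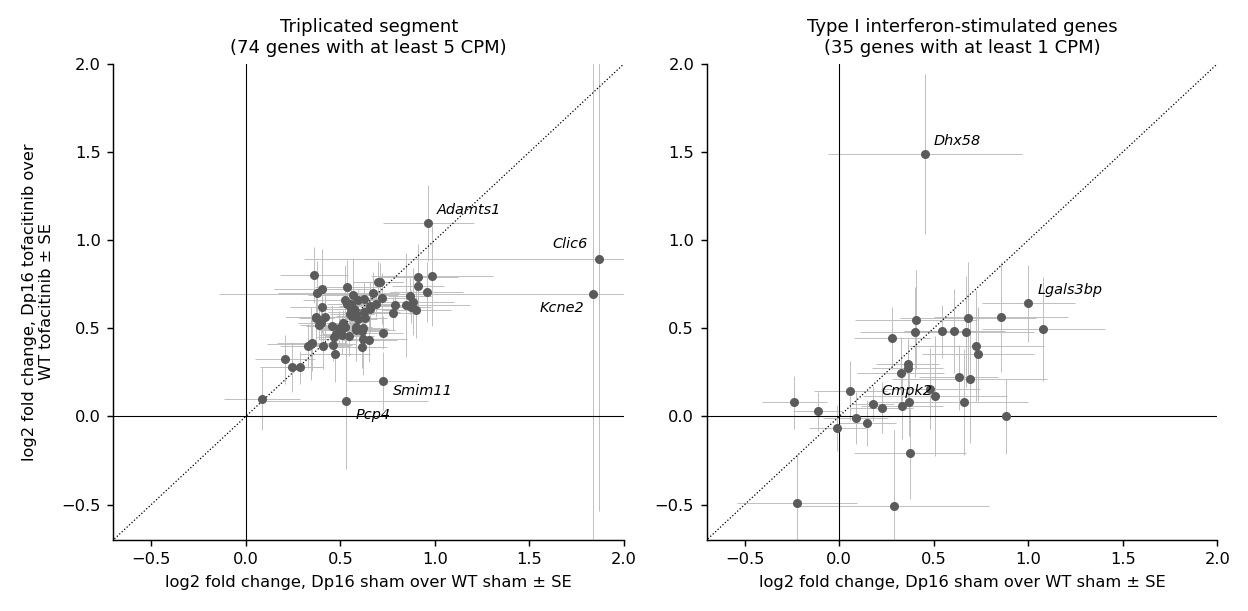
Log2 fold change of Dp16 over WT on tofacitinib (vertical) against the same in sham mice (horizontal), with SE bars that in places run past the axes, for 74 segment genes with at least 5 CPM (left) and 35 type I interferon-stimulated genes with at least 1 CPM (right). The dotted line marks equal values, and most interferon genes lie below it. The 74 segment genes drawn had a median of 0.57 on tofacitinib. Over all 107 tested segment genes the medians were 0.56 on tofacitinib and 0.58 in sham mice. Over the whole interferon list they were 0.22 on tofacitinib and 0.48 in sham mice.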

How the data were processed

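The authors deposited whole-number counts per gene for 34 hippocampal poly(A) RNA libraries (8 groups), which were used as deposited for every test; HTSeq 0.6.1, HISAT2 2.1.0, SAMtools 1.5, FastQC 0.11.5 and bcl2fastq are listed without roles in the submitters' processing notes, and the libraries were strand-specific per the labels' protocols; the strand setting of the counting and the handling of reads with several matches are not given in the sources used here. The RPKM values deposited by the authors were used only to compare levels between genes. Of 55385 gene identifiers, 55144 (99.6%) were found in the GENCODE vM21 annotation of GRCm38, from which coordinates come. Genes were filtered with filterByExpr, scaled by TMM and fitted by robust quasi-likelihood F-tests in edgeR 4.0.16 (R 4.3.3) across all 34 libraries, with a term for each of 8 groups and 1 for sex, which left 25 residual degrees of freedom. P-values were adjusted by the Benjamini-Hochberg method over 17518 genes. Log2 CPM used a prior count of 2, and intervals are 95%. The fitting was tested on simulated data. Every column was mapped to 1 sample. The precision rests on 14.9 to 20.4 M counts a library and 5 mice a group; the design text counts mice, and the labels give no litter or day.

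Alternatives were DESeq2 1.42.0, its size factors, no filter, no sex term, the compared groups alone, 2 surrogate variables (sva 3.50.0), a replicate block, and leaving out each of the 10 libraries or 3 libraries low in hippocampal markers. The members, the gene lists and the rules were chosen with earlier results of these data known. Named genes were check genes (the receptors, App, Dyrk1a, Rcan1, Sod1, Cbs and Thy1), the 12 segment genes with the smallest p, all named genes outside the segment that passed, up to 4 per list with a call, the 5 lowest segment genes of at least 5 CPM other than unnamed gene models, the 5 most abundant type I interferon-stimulated genes and the 5 with the smallest p for the difference between treatments; further members were named for their roles after their values were seen. Promoters are those of RefSeq on GRCm38.p6.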

Additional observations from a re-analysis of the deposited data

Results flagged for a closer look

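Within the 5 mice of each group, 19 of the 136 group values examined had 1 mouse set apart from the rest by more than 0.71 of the group's range (Dixon's criterion), and chance flags about 1 in 20 groups. Among Dp16 mice, mouse 1 was low for Synj1 at 495 CPM. Mouse 2 was high for Ifi27 at 39.6 CPM, and mouse 3 was high for Mat2b, a subunit of methionine adenosyltransferase, at 92.3 CPM. Mouse 4 was high for the histone gene H2ac6 at 4.06 CPM, and mouse 5 was low for Stat2 at 11.9 CPM.

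In 9 of the 19 the mouse set apart was WT mouse 3. It was at 3.83 for the mean log2 CPM of hippocampal subfield markers, at 5.58 for neocortical and at 5.32 for striatal markers. In the same mouse Slc13a5 was at 22.3 CPM, Rcan1 at 67.5 CPM, Prpf40b at 35.5 CPM, Pcp4 at 314 CPM and Mat2b at 130 CPM, all high, and Ifngr2 at 44.6 CPM was low. WT mouse 1 was low for Cbr1 at 51 CPM and high for Stat2 at 22.9 CPM. WT mouse 2 was low for Prdm15 at 7.15 CPM. WT mouse 4 had 0.0501 CPM of Timp1, a metalloproteinase inhibitor at 0 in the other WT mice, and was low for Bach1 at 9.91 CPM.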

How the results depend on the processing

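Over the settings tried, the 37 segment genes past the threshold were 30 to 38 when 1 of the 10 mice was left out, with a segment median of 0.54 to 0.57, and the count over all genes was 36 to 46. Outside the segment the 10 calls were 5 to 10: 5 without WT mouse 2, and 6 without Dp16 mouse 4 or without Dp16 mouse 5. Without WT mouse 3 there were 41 calls, 7 of them outside the segment. Of the 47 genes, 33 passed in all 10 of these fits, 28 in the segment and 5 outside. With no filter on low counts there were 214 calls, 56 in the segment and 158 outside, and 32 for the difference between tofacitinib and sham. DESeq2 called 68 genes, 49 in the segment and 19 outside, and 4 for that difference. With 2 surrogate variables there were 63 calls, 47 in the segment and 16 outside, and without the 3 libraries low in hippocampal markers there were 56, 44 and 12. The compared groups alone, no sex term and DESeq2 size factors gave 47 calls each, with 8 of the 47 genes lost with the compared groups alone (Adamts1, Chid1, Dnajc28, H1f2, H1f4, Il10rb, Scaf4 and Slc13a5) and 2 with no sex term (Chid1 and H1f4). The cause of these moves was not tested.

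With the replicate number as a block there were 44 calls, 37 in the segment and 7 outside, a segment median of 0.55 and none for the difference. Same-numbered mice correlated at −0.05, −0.16, 0.18, 0.02 and 0.04 in their deviations from group means, and 2 of 5 correlated best with their own number, so the numbers were not taken as pairs.

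Among the genes named by rule, signs turned for 5, none of which had passed. Adar was at −0.00125 with the replicate block, −0.0224 without WT mouse 2, −0.00227 without WT mouse 4, −0.0037 without Dp16 mouse 3 and −0.02 without Dp16 mouse 4. Over the fits that left out 1 mouse, the range was −0.0224 to 0.0977 for Adar, −0.00213 to 0.125 for Cmpk2, −0.154 to 0.0703 for Stat2, −0.157 to 0.124 for mt-Atp8 and −0.0719 to 0.464 for Pcp4. Cmpk2 was at −0.00213 without WT mouse 2, Stat2 at 0.0703 without WT mouse 1, and Pcp4 at −0.0719 without WT mouse 1 and −0.0473 without WT mouse 2. For mt-Atp8 the values were −0.0421 without WT mouse 4 and −0.157 without Dp16 mouse 1. The striatal median of −0.97 was −0.10 without WT mouse 3. That of 5 blood genes was −0.23, and 0.15 without it, and that of 16 dentate gyrus genes 0.11, and −0.03 without it. For 13 CA1 genes the median was 0.25, and 0.04 without that mouse. The 33 tested segment genes below 5 CPM had no call, and detectability at that depth was not measured.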

Other observations

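The 18 tested clock genes had a median log2 fold change of −0.11 with 2 above 0 on tofacitinib (−0.05 and 4 without WT mouse 3), and −0.23 with 1 above 0 in sham mice. None passed by edgeR or DESeq2, and 2 were at an unadjusted p under 0.05 on tofacitinib by edgeR. The 25 tested immediate-early genes had medians of −0.03 on tofacitinib and −0.34 in sham mice, with 9 and 3 above 0. The labels give no time of day. The 13 genes of the mitochondrial genome had medians of 0.04 on tofacitinib and 0.33 in sham mice, and 16 choroid plexus markers 0.31 and 1.24. In the main edgeR fit no gene passed for the difference between the treatments, while DESeq2 called 4.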
